A study of Mus musculus with 6 samples.

Results

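Ductal cells, epithelial cells of the pancreatic duct recovered with islets, were sought among islet cells prepared for single-cell RNA-Seq from 3 WT and 3 β14-3-3ζ–KO mice. A barcode was taken as such a cell, called *Krt19*-selected here, when it had over 1000 detected genes, no more than 10% of its unique molecular identifiers (UMIs, each standing for 1 captured mRNA molecule) on mitochondrial genes, under 25% of its UMIs on *Ins1* and *Ins2* together, and at least 3 of the 5 transcripts *Krt19*, *Krt8*, *Krt18*, *Sox9* and *Muc1*, with *Krt19* among them. The rule found 218 cells of 43445 barcodes, of which 19721 passed the filters on genes and mitochondrial share. These values chose the cells, so the levels of the 5 transcripts are given as a description and without a test.

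All mice were 12 to 14 weeks old and on a C57/BL6 background. In β14-3-3ζ–KO mice, exon 4 of *Ywhaz*, the gene of 14-3-3ζ, lay between loxP sites and was removed by an Ins1-driven Cre recombinase (Ins1CreThor), which limits the deletion to cells that use the *Ins1* promoter, mainly β cells. WT mice were labelled wild type, and the study describes its WT littermates as carrying the same Cre. Islets were handpicked, kept in culture overnight, dispersed and cleared of dead cells before capture, so that duct fragments attached to islets were not a designed sample of the pancreatic duct. Each library was labelled as a separate replicate, here named WT1 to WT3 and KO1 to KO3.

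The pancreatic duct carries the enzymes of acinar cells to the gut and adds bicarbonate and water to them, through apical chloride channels such as CFTR and basolateral sodium bicarbonate cotransport. Its cells form a simple epithelium held together by claudins, E-cadherin and desmosomes, filled with simple-type keratins, and each carries a primary cilium that faces the lumen. SOX9 and ONECUT factors maintain their identity, and injury makes them switch on keratinization, adhesion and YAP target genes. In an islet preparation they are a minor component, and Ins1-Cre is not expected to act in them.

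The 3 WT libraries held 39, 16 and 63 *Krt19*-selected cells and the 3 KO libraries held 65, 12 and 23. As a share of barcodes that passed the filters these were 2.21%, 0.316% and 3.49% in WT and 2.82%, 0.189% and 0.944% in KO. The groups overlapped, with means of 2.01% ± 1.6 (SD, n = 3) in WT and 1.32% ± 1.36 (SD, n = 3) in KO (2-sided exact permutation test, p = 0.6, where 0.1 is the smallest value that 3 against 3 allows). The lowest shares came from WT2 and KO2, which had the most cells passing the filters (5068 and 6349, against 1761 to 2436 in the other libraries) and the fewest UMIs per passing cell (medians of 6328.5 and 6905, against 22317 to 27703). Whether depth bears on the shares was not tested. Exact 95% binomial intervals, which cover counting error only, ran from 1.58% to 3.02% in WT1 and from 0.0977% to 0.330% in KO2.

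*Krt19*-selected cells held 2577 to 251903 UMIs each, with a median of 27508.5 UMIs and 5565 genes. Median UMIs per *Krt19*-selected cell were 32356, 20829 and 27173 in WT and 24712, 22626 and 23457 in KO, and the groups overlapped (exact permutation test, p = 0.5). Summed over cells, a library contributed between 263066 UMIs in KO2 and 2757299 in WT3, so KO2 and WT2 (395326 UMIs) carry the largest counting error. Of 43207 distinct barcode sequences, 236 occurred in more than 1 library, and 4 *Krt19*-selected cells had a barcode that was also seen elsewhere. None of the 218 cells shared its barcode with a selected cell of another library.

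The label was checked against markers of other cell types, and the data went against it for part of the cells. Summed, 7 islet hormone transcripts (*Ins1*, *Ins2*, *Iapp*, *Gcg*, *Sst*, *Ppy* and *Pyy*) made up under 10% of UMIs in 152 cells, called hormone-poor here, and 10.3% to 61.2% in the other 66, called hormone-rich. In hormone-poor cells the median counts were 16 UMIs of *Krt19*, 87 of *Krt8*, 81 of *Krt18*, 159 of *Clu* and 47.5 of *Epcam*, and *Sox9* was seen in 91.4% of cells. Of these genes only *Clu* and *Epcam* were not used by the rule. Hormone-rich cells rested on the edge of the rule. Of these 66, 40 had exactly 1 *Krt19* UMI, 46 had only 3 of the 5 transcripts, and their medians were 1 UMI of *Krt19*, 5 of *Krt8* and 8 of *Clu*. Their median of *Chga*, the chromogranin of endocrine secretory granules, was 69 UMIs against 3 in hormone-poor cells. *Ins2* was the leading hormone in 42 of the 66, *Ppy* in 11, *Gcg* in 8, *Sst* in 4 and *Iapp* in 1.

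*Krt19* fell and *Chga* rose with the hormone share. Cells with under 1% of UMIs on hormones numbered 62 and had median counts of 30.5 UMIs of *Krt19* and 4 of *Chga*. Between 1% and 2% there were 34 cells with medians of 18 and 3 UMIs, and between 2% and 5% there were 42 with medians of 8.5 and 3. Between 5% and 10% there were 14 cells with medians of 8 and 5.5 UMIs, and between 10% and 20% there were 22 cells with medians of 1 and 19 UMIs. Above 20% there were 44 cells with medians of 1 and 96. These counts were not scaled for depth, and the median UMIs per cell in the 6 bins were 48896, 21610, 16049.5, 10090.5, 15042.5 and 35584.5. The boundary at 10% fell where cells were few, with 14 cells between 5% and 10% and 8 between 10% and 15%. A single UMI of *Krt19* beside abundant endocrine transcripts does not identify a duct cell, so values of the 152 hormone-poor cells are given beside those of all 218, and the other 66 are called hormone-rich and given no cell type. The 152 are called hormone-poor ductal cells where another class stands beside them, a name that does not hold for each cell. Of the 152, 147 had a UMI of *Epcam*, and 11 carried markers of a class other than endocrine or β cells after thinning to 2000 UMIs. Single hormone-poor cells held 1494 acinar UMIs in WT2, 5140 in KO1 and 1894 in KO2.

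**Figure D1:**
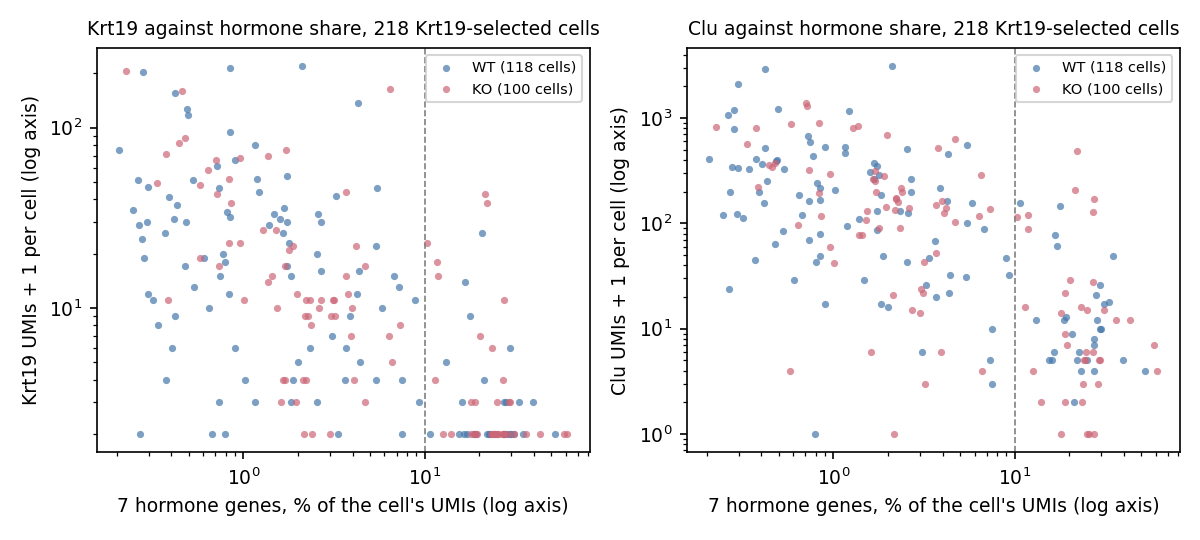
Each of the 218 *Krt19*-selected cells is a point coloured by genotype, with the share of its UMIs on 7 islet hormones on the horizontal axis and its UMIs of *Krt19* (left) or *Clu* (right) plus 1 on the vertical axis, all on log scales, and a dashed line at 10%. Of the 109 cells with at least 10 *Krt19* UMIs, 101 lie left of the line, while 40 of the 66 cells right of it hold exactly 1 *Krt19* UMI.

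Hormone-rich cells were unevenly spread over libraries. They made up 5 of 39, 2 of 16 and 22 of 63 *Krt19*-selected cells in WT (12.8%, 12.5% and 34.9%) and 22 of 65, 6 of 12 and 9 of 23 in KO (33.8%, 50.0% and 39.1%). Hormone transcripts therefore took 2.78%, 6.36% and 8.0% of the UMIs of all *Krt19*-selected cells in the WT libraries and 7.60%, 16.1% and 12.0% in the KO libraries, and after restriction to hormone-poor cells 0.793%, 3.39% and 1.36% against 1.5%, 2.92% and 1.80%. The share of hormone-poor ductal cells among passing barcodes was 1.49% ± 1.07 in WT and 0.845% ± 0.917 in KO (SD, n = 3 each; exact permutation test, p = 0.4). The mean share of hormone RNA in the sums over all *Krt19*-selected cells was thus higher in KO, with KO1 within the WT range, and counts of genes are given with and without the hormone-rich cells.

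**Figure D2:**
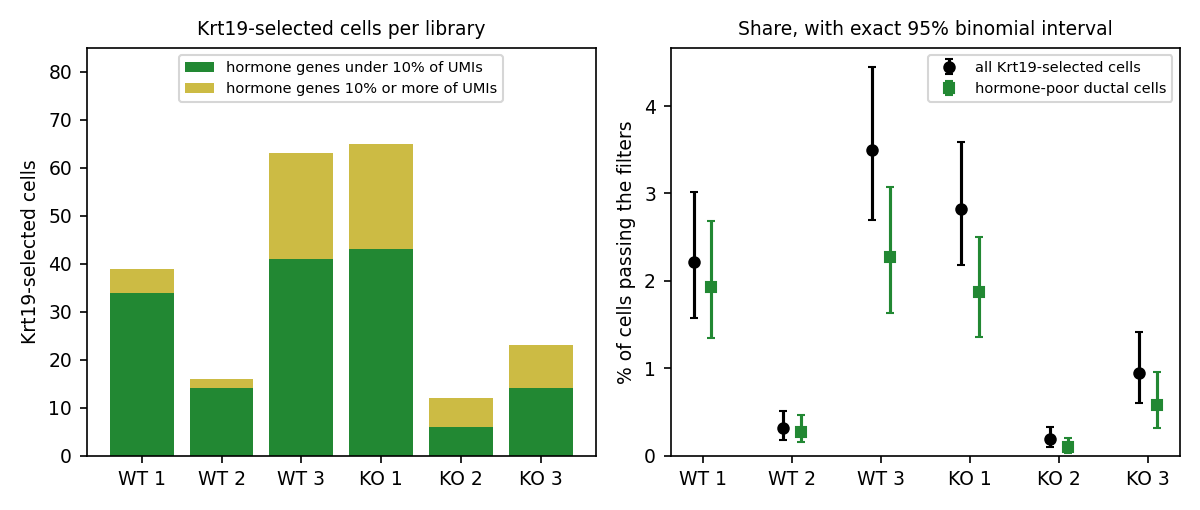
Bars (left) give the number of *Krt19*-selected cells in each of the 6 libraries, split at 10% of UMIs on hormones, and points (right) give their share among cells passing the filters, with exact 95% binomial intervals. WT2 and KO2 hold 16 and 12 cells, and KO2 has 6 hormone-rich and 6 hormone-poor cells.

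After each cell had been thinned to 2000 UMIs, the depth at which all 218 could be compared, 110 of 218 cells (50.5%) carried markers of another class, and 19 did when endocrine and β cell markers were left out. At least 3 acinar markers were found in 7 cells, macrophage markers in 6, B cell markers in 3 and endothelial, mesenchymal, mesothelial and T cell markers in 1 each, while dendritic and Schwann markers were found in 0. Endocrine markers were found in 100 cells (66 of 66 hormone-rich and 34 of 152 hormone-poor). No doublet caller was run, and 19 cells held over 100000 UMIs, all of them hormone-poor. They came from WT1, WT3 and KO1 only, where the deepest cell held 230043, 251903 and 184055 UMIs. The sums over hormone-poor cells there were 2013730, 2051189 and 1892347 UMIs. In WT2, KO2 and KO3 no cell held more than 65492, 37992 and 98966. Levels and fits use summed UMIs, so deep cells weigh more in them than other cells do. Among the 152 hormone-poor cells, *Cd3g*, *Ccl22*, *Flt3*, *Sox10*, *Muc16*, *Ptf1a* and *Amy2a2*, defining transcripts of T, dendritic, Schwann, mesothelial and acinar cells, had 0 of 6815962 UMIs, which allows a level of up to 0.440 UMIs per 1000000. Other genes of these lists were detected. Per 1000000 UMIs, the 16 acinar genes summed to 54.2 to 14074 in the hormone-poor cells of a library, the 6 Schwann genes to 199 to 804, of which *Cryab*, a small heat shock protein, made up a mean of 388, and the 8 mesothelial genes to 0 to 83.9.

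The cells next to the limits of the rule were as follows. Inside, 51 cells had exactly 3 of the 5 transcripts, with a median of 1 *Krt19* UMI and 23.9% of UMIs on hormones. Outside, 20 cells had *Krt19* and 1 other transcript, and 23 had *Krt19* alone, each with a median of 1 *Krt19* UMI. Without *Krt19* but with 3 or 4 of the other transcripts there were 252 cells, which had a median of 25% of UMIs on hormones. A further 116 cells met all but the insulin limit, 44 all but the mitochondrial limit and 8 all but the limit on genes.

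Keratins are described first, since the rule rests on 3 of them. Levels are given as CPM, the UMIs of a gene per 1000000 UMIs summed over the hormone-poor cells of a library, as mean ± SD over 6 libraries, and since 1 UMI is counted per captured 3′ end they were not divided by transcript length and are compared between libraries and cell types rather than between genes. *Krt8* and *Krt18*, the pair of simple-epithelial keratins, reached 3858 ± 616 and 3585 ± 875 CPM. In insulin-rich cells (8607 passing cells with at least 25% of UMIs on insulin) they reached 97.4 and 101. The 8 genes of the islet hormone list, *Ttr* included, summed to means of 474921 CPM in insulin-rich and 285420 in alpha cells. In hormone-poor cells their mean was 19660. Hormone RNA thus lowers the CPM of every other gene in insulin-rich and alpha cells, and no level here was rescaled for it. *Krt19* (chromosome 11, 100140810 to 100148665, minus strand, GRCm38), the keratin that most sharply marks ducts, was at 432, 396 and 957 in WT and 807, 487 and 615 in KO, against a mean of 1.31 in insulin-rich cells. *Krt7* was at 588 ± 106, against 204 in insulin-rich cells. *Krt17*, a keratin of stressed epithelia, was lower and uneven at 88.3 ± 85.1, and *Krt20*, *Krt14* and *Krt5*, of gut surface and squamous basal cells, were not detected. The 5 rule transcripts summed to 6539 to 10880 CPM in a library, against means of 201 in insulin-rich, 232 in alpha, 35.8 in endothelial and 69.7 in mesenchymal cells. The rule chose the cells by these transcripts and the other classes leave the chosen cells out. This contrast therefore follows from the choice and does not bear on the label.

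**Figure D3:**
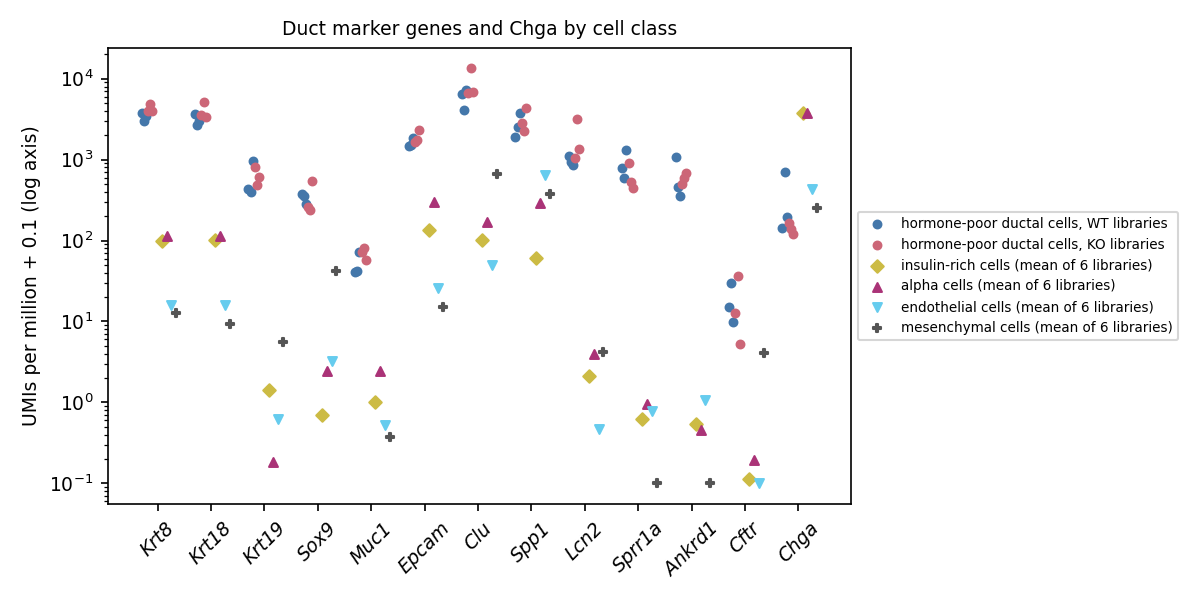
Levels of 12 duct genes and *Chga* as CPM plus 0.1 on a log scale, with a point for each library in hormone-poor ductal cells and for the mean of 6 libraries in insulin-rich, alpha, endothelial and mesenchymal cells. *Krt8* has a mean of 3858 in hormone-poor ductal cells against 97.4 in insulin-rich cells, and *Krt19* 616 against 1.31.

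Transcripts of 21 junction and polarity genes summed to 6313 ± 810 CPM, against 731 in insulin-rich cells. *Epcam*, an epithelial adhesion molecule, was at 1752 ± 311 CPM against 133 in insulin-rich cells. The tight junction claudins *Cldn4*, *Cldn3* and *Cldn7* were at 924 ± 198, 623 ± 69.8 and 592 ± 63.0, and *Cdh1*, encoding E-cadherin, at 443 ± 72.8. Of these genes, 20 were frequent enough to be tested between genotypes, the exception being *Cldn1* at 0.513 ± 1.03.

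Secreted and apical proteins were led by *Clu*, a secreted chaperone, and *Spp1*, encoding osteopontin. *Clu* was at 6419, 4133 and 7215 CPM in WT and 6724, 13381 and 6840 in KO, so KO2, the smallest library with 6 hormone-poor cells, stood apart from the other 5. In KO2, 1 cell of 14387 UMIs held 635 *Clu* UMIs, and it also held the 202 *Cela1* UMIs of the library's hormone-poor cells. *Spp1* was at 1885, 2549 and 3718 in WT and 2863, 2235 and 4353 in KO. *Anxa3* was at 903 ± 107 against 1.87 in insulin-rich cells, and *Cd24a* at 407 ± 93.9. Mucins were scarce: *Muc1* was at 60.7 ± 17 and *Muc4* at 3.98 ± 5.50. *Tff2*, a trefoil peptide of mucous glands, was seen in 20 of 152 cells with up to 32 UMIs in a cell, *Tff3* in 3 cells and *Tff1* in 1.

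The machinery of fluid secretion was present at low to moderate levels. The sodium pump subunit *Atp1b1* was at 334 ± 51.6 CPM, *Fxyd3*, a modulator of the pump, at 235 ± 71.6, and the cotransporter *Slc12a2* at 102 ± 28.7. *Slc4a4*, the sodium bicarbonate cotransporter, was at 93.3 ± 26.4 against 7.86 in insulin-rich cells, and *Ano1*, a calcium-activated chloride channel, at 72.0 ± 34.0 against 0.157. *Cftr*, the chloride and bicarbonate channel of small ducts, was at 18.2 ± 12.4, with a UMI in 30.3% of hormone-poor cells and in 1.32% after thinning to 2000 UMIs. *Car2*, the cytosolic carbonic anhydrase, was at 30.7 ± 21.3. *Sctr*, the secretin receptor, was seen in 15 cells and *Aqp5* in 11. *Slc9a3* and *Aqp8* were not detected.

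Among cilium and cyst genes, *Bicc1* and *Wwc1* led with 205 ± 69.9 and 171 ± 57.9 CPM, followed by *Ift20* at 96.5 ± 13.0 and *Glis3* at 71.8 ± 20.3. *Pkhd1*, the gene of fibrocystin, was at 34.0 ± 11.1 against 4.16 in insulin-rich cells.

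The 25 genes of the duct transcription factor list summed to 3096 ± 554 CPM. Other classes had means of 2989 in endothelial, 1724 in mesenchymal, 962 in alpha and 631 in insulin-rich cells, so the summed level was close to that of endothelial cells. *Sox4* was at 632 ± 95.4 CPM, *Klf6* at 390 ± 97.4 and *Sox9* (chromosome 11, 112782224 to 112787760, plus strand) at 375, 351 and 282 in WT and 262, 236 and 550 in KO. *Hes1*, an effector of Notch signalling, was at 273 ± 85.9, and other genes of the Notch list, *Rbpj*, *Jag1* and *Notch2*, were at 45.9 ± 13.1, 43.8 ± 6.12 and 37.2 ± 11.4. The 16 Notch genes summed to 488 ± 113, against 1837 in endothelial, 379 in mesenchymal, 115 in alpha and 74.5 in insulin-rich cells. *Ehf* was even across libraries, at 203 ± 9.71. *Onecut2* was at 213 ± 132. *Neurog3*, which commits cells to the endocrine lineage, was seen in 2 of 152 cells, and *Pdx1* in 57.

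The 25 genes of the epithelial injury list summed to 8277 ± 1490 CPM, against 408 in insulin-rich, 699 in alpha, 3021 in endothelial and 3983 in mesenchymal cells. *S100a11* and *S100a6*, calcium-binding proteins, were at 2471 ± 375 and 1349 ± 789 CPM against 143 and 15.8 in insulin-rich cells, and *Anxa2* was at 714 ± 73.3 against 2.84. *Sprr1a*, a cornified envelope precursor, was at 792, 590 and 1299 in WT and 902, 531 and 449 in KO. *Ankrd1*, a target of YAP and TEAD, was at 1071, 456 and 352 in WT and 502, 598 and 682 in KO, and the other leading targets F3, *Ccn1* and *Amotl1* were at 731 ± 357, 394 ± 181 and 120 ± 40.6. The immediate early and heat shock genes *Hspa8*, *Jund*, *Jun* and *Junb* were at 1550 ± 69.3, 697 ± 57.0, 644 ± 86.3 and 481 ± 105, against 384, 214, 68.8 and 64.8 in insulin-rich cells. The 18 genes of that list summed to 5797 ± 464, against 5333 in endothelial, 3641 in mesenchymal and 1094 in insulin-rich cells. *Lcn2*, an iron-binding acute phase protein, was at 1114, 938 and 850 in WT and 1039, 3142 and 1340 in KO, with KO2 again the highest. *Cxcl2*, a neutrophil chemokine, was the most uneven, at 70.0, 1525 and 302 in WT and 44.4, 207 and 38.7 in KO, so that WT2 held most of it. MHC class I genes were led by *H2-K1* at 384 ± 105 and *H2-D1* at 268 ± 68.3.

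The 23 genes of S, G2 and M phase summed to 376 ± 49.4 CPM, against 97.1 in insulin-rich, 141 in alpha, 349 in endothelial and 822 in mesenchymal cells, and 17 of 152 hormone-poor cells had at least 8 of them. *Mki67* was seen in 3 of 152 hormone-poor cells and *Top2a* in 8, with at most 1 UMI of either in a cell, and *Ccnb1* and *Bub1* were not detected. These counts of cells were taken at full depth, where 19 hormone-poor cells held over 100000 UMIs. After thinning to 2000 UMIs, *Mki67* was seen in 0 hormone-poor cells of each library and *Top2a* in 1 cell, of WT3. The leading genes of the list were *Hmgb2* and *Pcna*, at 144 ± 33.7 and 92.0 ± 17.9 CPM.

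The genes with the largest ratio to all other passing cells, among 5539 genes seen in at least 50% of hormone-poor cells, were *Gsta1* (1208-fold), *Ankrd1* (1107-fold), *Sprr1a* (1068-fold), *Vtcn1* (838-fold) and *Onecut1* (676-fold). In the other cells these 5 were at only 0.313, 0.551, 0.712, 0.0507 and 0.0355 CPM. With levels so low there, the size and order of the ratios are uncertain. *Gsta1* is a glutathione transferase with near-identical copies between which reads may be split, and *Gsta3* also stood among the first 20 genes (227-fold). *Krt19*, which the rule used, was at 598-fold, *Lcn2* at 533-fold, *Wfdc2*, a secreted protease inhibitor, at 507-fold, *Cdh6* at 459-fold and *Sox9* at 201-fold. Genes of cell contacts on the list included the adhesion molecule *Mpzl2* (299-fold) and the integrin *Itgb6* (216-fold). *Foxj1*, the regulator of motile cilia, stood at 246-fold with a UMI in 50.7% of cells. Over all 218 cells, with 5261 genes eligible, the order began with *Ankrd1* (883-fold), *Sprr1a* (866-fold) and *Krt19* (460-fold). These ratios follow from choosing the cells by their transcripts and carry no test.

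Hormone-poor cells varied among themselves at equal depth. After thinning to 2000 UMIs, *Clu* ranged from 0 to 95 UMIs per cell with a median of 10.5, *Spp1* from 0 to 72 with 55 cells at 0 and 38 cells with at least 10, and *Krt8* from 0 to 42 with a median of 7. *Sprr1a* was at 0 in 81 cells, *Lcn2* in 62 and *Ankrd1* in 89. *Clu* and *Spp1* went together across cells, with a Spearman correlation of 0.63 over 152 cells and between 0.43 and 0.83 within the 6 libraries, as did *Krt8* and *Krt18* (0.55). These cells share a library, and both genes of a pair share the cell's quality, so the values describe the cells and carry no p. *Sprr1a* and *Spp1* were both seen in 45 thinned cells, *Sprr1a* alone in 26, *Spp1* alone in 52 and neither in 29.

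*Ywhaz* was examined first in the comparison of genotypes, since it is the targeted gene. Its levels here are CPM after TMM scaling of the sums. In insulin-rich cells *Ywhaz* was at 141, 158 and 149 in WT and 21.4, 33.3 and 22 in KO, a log2 difference, KO minus WT, of -2.55 ± 0.174 (± SE; adjusted p = 0.00520 by edgeR's quasi-likelihood test), in a comparison that called 1 of 8792 genes (0.0114%). In all *Krt19*-selected cells *Ywhaz* (chromosome 15, 36770770 to 36796929, minus strand) was at 509, 389 and 440 in WT and 407, 266 and 317 in KO. The groups overlapped and the log2 difference was -0.42 ± 0.199 (± SE; adjusted p = 0.863 by edgeR, unadjusted 0.0524). In hormone-poor cells, which exclude the cells with most endocrine RNA, it was at 550, 440 and 520 in WT and 508, 382 and 458 in KO, a log2 difference of -0.15 ± 0.179 (± SE) that was not called. In alpha cells it was at 112, 160 and 148 against 96.3, 141 and 121, a log2 fold change of -0.23. UMIs were counted at the 3′ end of the transcript and do not show exon 4, so they report the amount of the transcript and not the deletion itself.

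The difference between the 2 cell classes was tested directly. The effect of genotype on *Ywhaz* was 2.23 ± 0.229 (SE) higher on the log2 scale in *Krt19*-selected than in insulin-rich cells (genotype by class term of limma-voom with libraries as blocks, adjusted p = 0.00183). *Ywhaz* was the only gene of 10667 called by this term (0.00937% of genes tested). With hormone-poor ductal cells the term was 2.50 (limma, adjusted p = 0.000107, 1 of 10374 genes called, 0.00964%). Without WT3 the term over all *Krt19*-selected cells was 2.20 with an adjusted p from limma of 0.0701, and without KO1 it was 1.90 with an adjusted p of 0.0871. Against alpha cells in place of insulin-rich cells it was -0.16 (limma, adjusted p = 0.938).

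**Figure D4:**
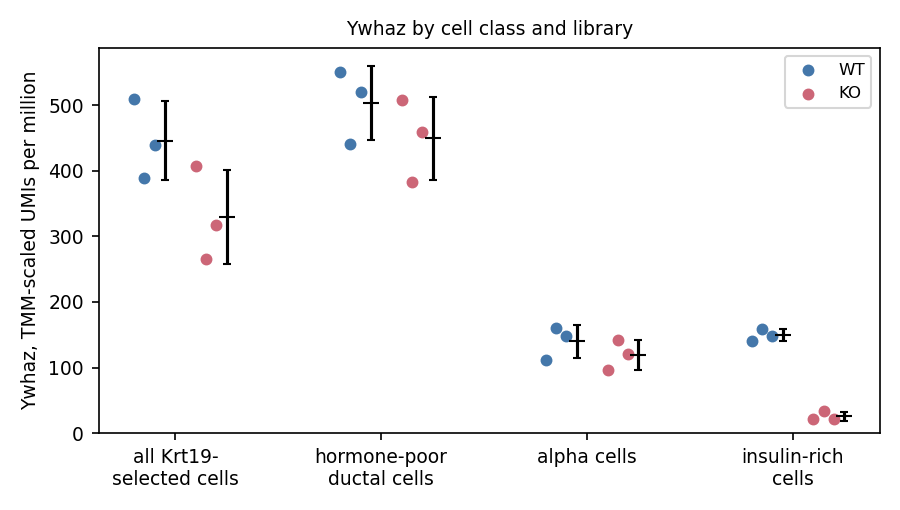
*Ywhaz* in each library, as TMM-scaled CPM, for all *Krt19*-selected, hormone-poor ductal, alpha and insulin-rich cells, with a point for each of 3 WT and 3 KO libraries and bars for mean ± SD. In insulin-rich cells the 3 KO libraries (21.4 to 33.3) lie below the 3 WT libraries (141 to 158), while in *Krt19*-selected cells the genotypes overlap.

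Over all *Krt19*-selected cells, 1 of 10667 genes tested passed an adjusted p of 0.05 with an absolute log2 fold change above 0.1 (edgeR, 0.00937% of genes tested), and DESeq2 called 5, which were *Cela1*, *Acly*, *Gstp1*, *Gadd45b* and *Gm10076*. Before adjustment, 335 genes (3.14%) were higher and 275 (2.58%) lower in KO with a p under 0.05, 5.72% of those tested. The values of the 3 KO libraries lay all above or all below the 3 WT libraries for 1344 genes (12.6%), above for 6.35% and below for 6.25%. In hormone-poor cells edgeR called 0 of 10374 genes, with 274 at an unadjusted p under 0.05 (2.64%, made up of 1.1% higher and 1.54% lower in KO), DESeq2 also called 0, with 77 at an unadjusted p under 0.05, and 994 genes (9.58%, above for 4.05% and below for 5.53%) did not overlap between genotypes. In simulated counts of the same size as the comparison of all *Krt19*-selected cells, 103 of 108 genes changed 4-fold and 40 of 92 changed 2-fold were called. The simulation gave every gene the same spread between libraries beyond counting error (a coefficient of variation of 0.186) and changed no gene of low count. Its shares therefore do not hold for genes that vary more, such as *Cxcl2*, which at -3.51 was not called.

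The other 14-3-3 genes were compared with the same fit. In hormone-poor cells the family was led by *Sfn*, encoding the epithelial 14-3-3σ, at 582, 575 and 931 CPM in WT and 635, 384 and 746 in KO, against a mean of 3.69 in insulin-rich cells. *Ywhae* was at 612 ± 64.7, *Ywhaq* at 412 ± 25.5, *Ywhah* at 258 ± 33.0, *Ywhab* at 257 ± 25.3 and *Ywhag* at 106 ± 10.5, so *Sfn*, *Ywhae*, *Ywhaz* and *Ywhaq* were the 4 with the most UMIs. None of the 7 genes passed the test in all *Krt19*-selected cells (edgeR, adjusted p from 0.863 to 1.000) or in hormone-poor cells. Log2 fold changes of all 7 were negative in all *Krt19*-selected cells, with a median of -0.07, and in hormone-poor cells 3 were positive and 4 negative, with a median of -0.04. The signs of *Ywhab*, *Ywhag*, *Ywhah* and *Ywhaq* turned under at least 1 other choice of cells or libraries.

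The called gene was *Cela1* (chromosome 15, 100674421 to 100687921, minus strand), encoding a pancreatic elastase made by acinar cells, which was higher in KO by 4.19 ± 0.456 on the log2 scale (± SE; adjusted p = 0.00145 by edgeR). It was at 31.0, 58.2 and 16.3 CPM in WT and 248, 787 and 550 in KO. In each KO library a single cell held nearly all of it, namely 599 of 622 UMIs in KO1, 202 of 207 in KO2 and 381 of 396 in KO3. Those cells carried other acinar transcripts too: the single cell with most acinar UMIs held 5140 of 5228 in KO1, 1894 of 1927 in KO2 and 2871 of 2916 in KO3. In WT1 1 cell likewise held 63 of 68 *Cela1* UMIs. Without the cells that carried markers of another class, the log2 fold change of *Cela1* was -0.86 and it was not called, nor was it called with a limit of 2000 genes or of 4 rule transcripts. In hormone-poor cells the genotypes overlapped, at 1.99, 56.6 and 14.1 CPM in WT and 322, 1490 and 5.16 in KO.

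The genes with the lowest p in each direction, none of which edgeR called apart from *Cela1*, were *Ppy*, *Glp1r*, *Acly* and *Nrp2* on the higher side. *Ppy*, encoding pancreatic polypeptide, was at 2824, 1824 and 8775 CPM in WT and 10971, 55712 and 24835 in KO over all *Krt19*-selected cells, and at 73.5, 238 and 151 against 136, 494 and 158 in hormone-poor cells. *Glp1r*, the receptor of GLP-1, was at 62.9, 86.0 and 73.3 against 115, 156 and 161, and in hormone-poor cells at 25.8, 62.5 and 18 against 29.1, 44.3 and 36.1. *Acly*, which makes cytosolic acetyl-CoA, was at 158, 207 and 259 against 372, 407 and 381, and in hormone-poor cells at 116, 161 and 121 against 154, 155 and 95.5. In hormone-poor cells the genotypes overlapped for *Ppy*, *Glp1r* and *Acly*. *Nrp2*, a semaphorin co-receptor, was at 2.73, 5.06 and 7.62 against 22.7, 41.8 and 12.5 over all *Krt19*-selected cells. In hormone-poor cells it was at 2.98, 2.98 and 5.85 against 27.0, 29.5 and 0, and the genotypes overlapped. Its mean was 401 CPM in endothelial and 1.66 in insulin-rich cells.

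On the lower side were *Gstp1*, *Slc7a11*, *Gadd45b*, *Gm10076* and *Hmox1*, with adjusted p from edgeR of 0.110 or more, while DESeq2 called *Gstp1*, *Gadd45b* and *Gm10076* over all *Krt19*-selected cells. *Gstp1* (chromosome 19, 4035407 to 4037985, minus strand), a glutathione transferase with near-identical copies between which reads may be split, was at 85.2, 96.1 and 88.1 CPM in WT and 41.0, 22.8 and 20.8 in KO, and in hormone-poor cells at 91.4, 107 and 111 against 51.8, 36.9 and 25.8. *Slc7a11*, the cystine importer for glutathione synthesis, was at 59.1, 95.3 and 80.0 against 38.6, 51.6 and 38.7 in hormone-poor cells. *Hmox1*, the heme oxygenase, was at 380, 575 and 347 against 241, 59.0 and 152, and *Gadd45b*, a stress-induced gene, at 301, 414 and 279 against 160, 95.9 and 266. Each of these 4 genes lay below WT in all 3 KO libraries among hormone-poor cells, as did 5.53% of all genes tested, and log2 fold changes there were -1.25 for *Gstp1*, -1.35 for *Hmox1* and -0.87 for *Gadd45b*, with no call. *Hmox1* was called where *Krt19* had to have at least 3 UMIs (-2.01, edgeR adjusted p = 0.0129) and where cells with markers of another class were left out (-1.69, adjusted p = 0.00368). *Gm10076*, a predicted gene, was at 305, 488 and 382 against 222, 184 and 188. In hormone-poor cells the lowest p on the higher side belonged to *Cela1*, *Plxnd1*, *Sst*, *Rbp4* and *Lgals1*. The hormone limit used *Sst*, so its p there is not a test. It was at 71.0, 116 and 88.2 CPM in WT and 674, 148 and 106 in KO. The genotypes overlapped for *Cela1*, *Sst*, *Rbp4* and *Lgals1*, while *Plxnd1* lay above WT in all KO libraries, as did 4.05% of all genes tested. On the lower side *Apoe* and *Atp8b1* joined *Gstp1*, *Gm10076* and *Hmox1*. *Apoe*, a lipoprotein also made by macrophages, was at 101, 1185 and 428 in WT and 48.6, 118 and 56.8 in KO, and the genotypes overlapped. The summed level of 8 macrophage markers ranged from 15.9 to 569 in WT and from 7.38 to 21.7 in KO, and its part in the level of *Apoe* was not tested.

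Lists of duct genes were then read by their counts and medians beside those of all genes, of which 5126 had a positive and 5541 a negative log2 fold change, with a median of -0.01 (hormone-poor cells, 4972, 5402 and -0.01). *Cela1* apart, edgeR called no gene of a list in either set of cells, while DESeq2 called *Gadd45b* of the injury list over all *Krt19*-selected cells. The adjusted p from edgeR of the 49 list genes outside the rule and insulin transcripts with an unadjusted p under 0.05 ran from 0.334 to 0.853 over all *Krt19*-selected cells.

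Over all *Krt19*-selected cells, all 21 genes tested of the epithelial injury list were negative, 9 of them with every KO library below every WT library (6.25% of all genes), and the median was -0.52. The 8 members at an unadjusted p under 0.05 (2.58% of all genes in this direction) included *Gadd45b*, *Atf3*, *Gadd45a*, *Sprr1a*, *Itgb6*, *Anxa2* and *Tnfrsf12a*. *Itgb6* encodes an integrin, *Anxa2* an annexin, *Tnfrsf12a* the receptor of TWEAK and *Atf3* and *Gadd45a* stress regulators. In hormone-poor cells 20 of 21 were negative with a median of -0.37. There 2 of 21 had an unadjusted p under 0.05 (1.54% of all genes in this direction), *Gadd45b* at -0.87 and *Atf3* at -0.60. *Sprr1a*, which was among the markers given for these cells, was at -0.74 over all *Krt19*-selected cells and -0.49 in hormone-poor cells. Without each library in turn, the median of the list lay between -0.67 and -0.41 over all *Krt19*-selected cells and between -0.56 and -0.13 in hormone-poor cells. The value nearest to 0 in hormone-poor cells came without WT3, with 10 positive and 11 negative genes, and over all *Krt19*-selected cells 5 of 20 were then positive.

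Targets of YAP and TEAD gave 3 positive and 16 negative values with a median of -0.40, and in hormone-poor cells 6 and 13 with a median of -0.18. Without WT1 these were 7 and 12 with a median of -0.17, and 8 and 11 with a median of -0.077. F3, encoding tissue factor, was at -1.18, *Ccn1*, a matricellular protein, at -0.83 and *Amotl2* at -0.59 over all *Krt19*-selected cells. In hormone-poor cells F3 was at -0.82, from 763, 1021 and 1016 CPM in WT and 419, 177 and 989 in KO, so that KO3 lay among the WT libraries. NF-kB and inflammatory genes gave 1 positive and 14 negative values with a median of -0.47, and in hormone-poor cells 2 and 13 with a median of -0.23. Without KO1 the latter were 7 and 8 with a median of -0.045, and without cells that carried another class the list gave 6 and 9 with a median of -0.074. *Cxcl2*, at -3.51 and -3.10, was highest in WT2. Without each library in turn it ranged from -4.09 to -1.75 over all *Krt19*-selected cells and from -3.84 to -1.50 in hormone-poor cells. Over all *Krt19*-selected cells edgeR called it without WT1 (-4.06, adjusted p = 0.0223). *Nfkbia*, an inhibitor of the pathway, and *Nfkbiz*, *Csf1* and *Vcam1* also had an unadjusted p under 0.05 over all *Krt19*-selected cells. *Lcn2* was positive, at 0.45 and, in hormone-poor cells, 0.91, where it ranged from 0.27 to 1.21 without each library in turn. Its level there was highest in KO2, which held 6 hormone-poor cells.

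Immediate early and dissociation genes gave 4 positive and 14 negative values with a median of -0.25, and 5 and 13 with a median of -0.18 in hormone-poor cells. They gave 9 and 9 in hormone-poor cells without WT3, with a median of -0.020, and 9 and 9 without cells that carried another class. *Myc* was at -0.80 and -0.50, *Ier3* at -0.79 and -0.57, *Dusp1* at -0.53 and *Klf4* at -0.68 over all *Krt19*-selected cells, and *Ier2* was positive at 0.50. Their summed level was 5572 to 6601 CPM in WT and 5200 to 5779 in KO among hormone-poor cells. These genes are known to respond to tissue handling, and their part in the values of the injury list was not tested.

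Lists of duct structure and function followed, each given over all *Krt19*-selected cells first and hormone-poor cells second. Junction and polarity genes gave 1 positive and 19 negative values over all *Krt19*-selected cells with a median of -0.15, and 12 and 8 with a median of 0.04 in hormone-poor cells. *Ocln*, a tight junction protein, was the only one of these 20 with an unadjusted p under 0.05, at -0.63. Keratins that the rule did not use gave 3 and 2 in both sets, with *Krt23* at -1.80 and -1.55, from 15.9, 83.4 and 54.1 CPM in WT and 13.7, 7.38 and 20.7 in KO. Apical and secreted genes, *Muc1* left out, gave 4 and 6, then 4 and 7. Among them *Anxa3* was at -0.45, *Wfdc2* at -0.68 and *Wfdc18* at -1.84 over all *Krt19*-selected cells, and in hormone-poor cells *Clu* was at 0.60, *Cd24a* at 0.44 and *Wfdc18* at -1.75 (0.14 without WT3). Without each library in turn, *Clu* ranged there from 0.18 to 0.79 and *Cd24a* from 0.33 to 0.59.

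Bicarbonate and fluid secretion genes gave 3 positive and 9 negative values in both sets, with medians of -0.24 and -0.11 and 0 of 12 at an unadjusted p under 0.05. Cilium and cyst genes gave 8 and 9 with a median of -0.04, then 11 and 6 with a median of 0.16, with *Glis3* at -0.50 over all *Krt19*-selected cells and *Pkd1*, encoding polycystin 1, at 0.64 in hormone-poor cells. Duct transcription factors, *Sox9* left out, gave 8 and 14 in both sets with medians of -0.22 and -0.08, with *Klf5* at -0.69 and *Nkx6-1*, a factor also used by β cells, at 0.67 over all *Krt19*-selected cells. Notch genes gave 4 and 5 in both sets. MHC genes gave 6 and 5 with a median of 0.07, then 4 and 7 with a median of -0.26, where *Cd74*, the class II invariant chain, was at -3.17 (-0.64 without WT2). Genes of S, G2 and M phase gave 2 and 5, then 4 and 3.

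**Figure D5:**
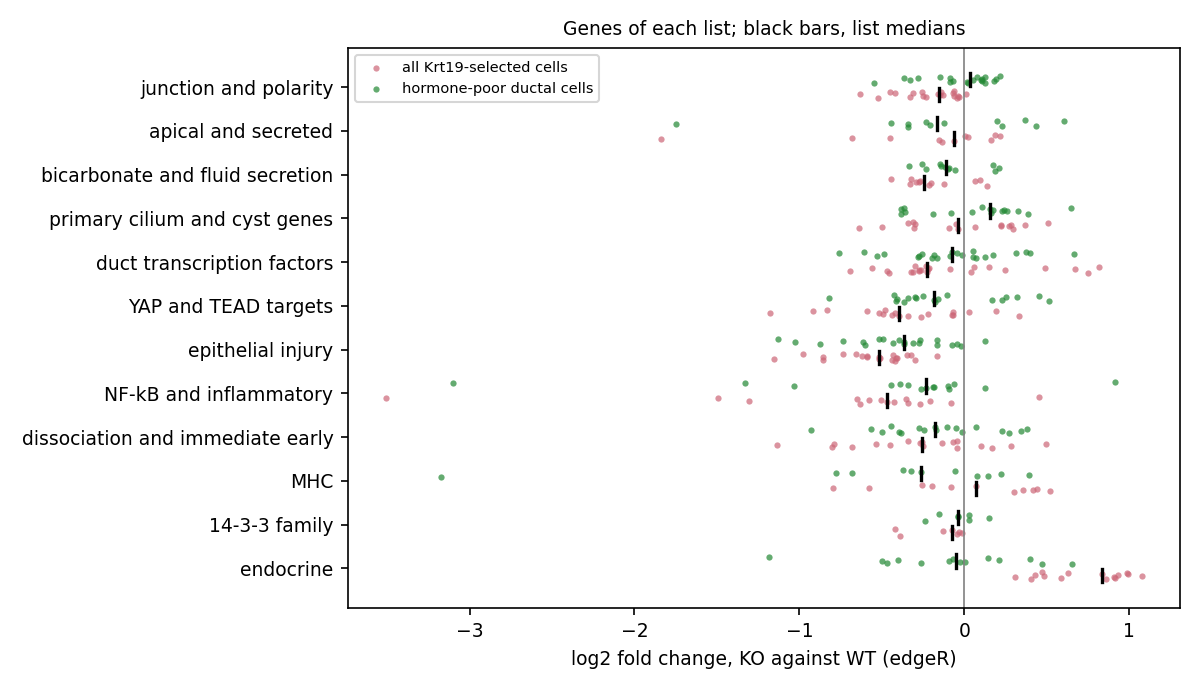
Log2 fold change, KO against WT, of each gene tested in 12 lists (points, *Sox9* and *Muc1* included), for all *Krt19*-selected cells and for hormone-poor ductal cells, with black bars at the list medians. The injury list has medians of -0.52 and -0.37, and the endocrine list 0.83 over all *Krt19*-selected cells and -0.05 in hormone-poor cells.

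Mitochondrial genes followed in β cells by the study were chosen on these libraries, so their direction is not independent evidence. Of 4 such genes, 3 were positive and 1 negative over all *Krt19*-selected cells with a median of 0.24, and in hormone-poor cells 4 were positive with a median of 0.18. *Uqcc2*, an assembly factor of complex III, was at 0.54 over all *Krt19*-selected cells, with every KO library above every WT library, as for 6.35% of all genes.

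Markers of other cell types moved with genotype in the sum over all *Krt19*-selected cells. All 15 endocrine genes were positive with a median of 0.83 and 9 at an unadjusted p under 0.05 (3.14% of all genes in this direction), and their summed level was 1795 to 4324 CPM in WT and 4245 to 6109 in KO. In hormone-poor cells 6 were positive and 8 negative with a median of -0.05, and the summed level was 644 to 2305 in WT and 676 to 962 in KO. β cell genes gave 7 positive and 1 negative value with a median of 0.67, then 6 and 1 with a median of 0.22. Hormone genes are not counted, since the rule and the hormone limit used them, and the limit also selects against other endocrine RNA. The acinar genes tested were all positive, 3 over all *Krt19*-selected cells and 4 in hormone-poor cells, with medians of 2.06 in each, and their summed level ran from 93.2 to 3883 in WT and from 2082 to 7325 in KO over all *Krt19*-selected cells. Mesenchymal markers *Rgs5* and *Sparc* were at 0.98 and 0.89 in hormone-poor cells, where the summed level of 8 mesenchymal markers was 107 to 283 in WT and 279 to 339 in KO. The 8 endothelial markers, too rare to be tested, summed to 15.0, 10.1 and 11.2 in WT over all *Krt19*-selected cells. In KO they summed to 165, 198 and 13.9. A change in the share of such cells or in the RNA each contributes cannot be told apart in these sums.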

How the data were processed

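Raw UMI counts per gene and barcode, deposited for 6 libraries, were made by the authors with the Chromium 3′ chemistry and, per the labels, Cell Ranger 6.0.2 on mm10, with Seurat used after. Each matrix lists 32285 genes. Positions are from GENCODE M21 (GRCm38). The cell rule, gene lists and the hormone limit of 10% were chosen with earlier results of these data known. Counts were summed over the cells of a library and tested with edgeR 4.0.16 (quasi-likelihood, TMM) over genes seen in more than 15% of cells of either genotype with at least 10 counts, and called at an adjusted p under 0.05 with an absolute log2 fold change above 0.1. The difference between classes was tested with limma 3.58.1, with DESeq2 1.42.0 as an alternative. Fits were tested on data simulated with the same spread between libraries for every gene, where 2 of 10667 genes were called falsely. P-values measure the spread between libraries labelled as replicates. The study gives 3 mice per genotype, which matches the 3 libraries, and does not say which mouse gave which library. Sums of a genotype differed beyond sampling noise, with chi-square per degree of freedom from 5.90 to 15.5. Genes named were the rule transcripts, further markers, 14-3-3 genes, the 5 lowest p in each direction, the 20 largest ratios and, in each list, the 4 with most UMIs, those with an unadjusted p under 0.05 and those not detected. Of the 20 largest ratios a part is named. Values of some genes that the rule takes are not reported here. No clustering and no doublet caller were run. Cells were thinned to 2000 UMIs where shares are compared. Alternatives left out libraries, narrowed the cells and changed tool, scaling and filter.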

Additional observations from a re-analysis of the deposited data

Results flagged for a closer look

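The effect of genotype on *Ywhaz* differed between *Krt19*-selected and insulin-rich cells, which is why it is listed here. The genotype by class term was 2.23 on the log2 scale (SE 0.229; limma-voom, adjusted p = 0.00183). Separate edgeR fits of each class gave log2 fold changes of -0.42 in all *Krt19*-selected cells and -2.55 in insulin-rich cells. The 3 KO libraries lay below the 3 WT libraries in insulin-rich cells, and the genotypes overlapped in *Krt19*-selected cells. With hormone-poor ductal cells the term was 2.50. Groups of 3 libraries are too small for a test of single libraries that stand apart, and none was made.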

How the results depend on the processing

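The difference in the share of *Krt19*-selected cells (KO minus WT, -0.69 percentage points) ranged from -1.53 to 0.053 without each library in turn, positive without WT3, and kept its sign under the 13 other alternatives. The difference in median UMIs per cell (-3188) ranged from -6166 to -403 without each library, and was 982 where *Krt19* had to have at least 3 UMIs and 524 without cells of another class.

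In place of the 1 gene called over all *Krt19*-selected cells, edgeR called 2 where *Krt19* had at least 3 UMIs, 0 with at least 4 rule transcripts, 0 with hormones under 10%, 0 with over 2000 genes, 2 with filterByExpr and 185 of 18026 with no filter on low counts, and DESeq2 called 5 of 10667. At 0 calls, the counts at an unadjusted p under 0.05 were 262, 274 and 615. Leaving out a library gave 1 to 9 calls, with 9 without KO1, 3 without WT1 and 3 without WT2. In hormone-poor cells the count was 0 to 2 without each library, with 2 without WT1 (*Areg* and *Apoe*).

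The *Ywhaz* difference between classes ranged from 1.90 to 2.50 without each library and lost its call without WT3 (2.20) and KO1 (1.90). It was -0.16 against alpha cells. *Ywhaz* itself ranged from -0.61 to -0.15 over 17 alternatives and was not called in any.

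Whether replicate numbers pair the libraries cannot be told from 6 libraries. Correlations of same-numbered libraries were 0.16, 0.099 and -0.0093 over all *Krt19*-selected cells, against -0.141 to 0.0351 for unlike numbers. In hormone-poor cells they were -0.0091, 0.094 and 0.0059. WT2 and KO2 shared low medians of UMIs per passing cell (6328.5 and 6905). A block for the replicate number gave 857 genes with an unadjusted p under 0.05 from edgeR over all *Krt19*-selected cells, against 610 without it. In fits with a block for that number, edgeR called 2 genes over all *Krt19*-selected cells and 5 in hormone-poor cells, *Ywhaz* was at -0.44 and its difference between classes at 2.23, the share difference was -0.69 (exact sign flips, p = 0.75) and the UMI difference -3188 (p = 0.5, where 0.25 is the smallest 3 pairs allow).

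For 62 genes named over all *Krt19*-selected cells, 974 values under alternatives kept direction and side of the threshold, 44 passed it newly, 3 lost it and 30 turned. Cells of another class left out gave *Cela1* -0.86, *Ctrb1* -1.14, *Neurod1* -0.35, *Insm1* -0.35, *Mafa* -0.24, *Slc30a8* -0.27, *Pcsk2* -0.055, *Ywhah* 0.14 and *Ywhaq* 0.051. Hormones under 10% gave *Pcsk2* -0.50, *Slc30a8* -0.38, *Pcsk1n* -0.096, *Scg2* -0.068, *Ywhab* 0.026, *Ywhah* 0.15 and *Ywhaq* 0.031. At least 4 rule transcripts gave *Chgb* -0.11, *Scg2* -0.095, *Ywhab* 0.037, *Ywhag* 0.014, *Ywhah* 0.052 and *Ywhaq* 0.029. *Krt19* at 3 or more gave *Ywhag* 0.038, *Ywhah* 0.036 and *Ywhaq* 0.024. Without each library in turn, *Ywhag* ranged from -0.079 to 0.052, *Ywhah* from -0.10 to 0.030 and *Ywhaq* from -0.12 to 0.038, and in hormone-poor cells *Wfdc18* from -2.22 to 0.14, the latter without WT3. The cause of these turns was not tested. Depth limits KO2 most, with 135565 UMIs in 6 hormone-poor cells. The hormone-poor alternatives to the block, tool and libraries were chosen after seeing the data.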

Other observations

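Genes of glutathione synthesis and detoxification varied between the KO libraries. They were picked after their values had been seen, so their levels stand as a description and are given without a p. Levels are TMM-scaled CPM in hormone-poor ductal cells. *Gsta1*, a glutathione transferase, was at 420, 303 and 737 in WT1 to WT3 and at 605, 122 and 109 in KO1 to KO3. *Gsta3* was at 379, 327 and 495 against 554, 138 and 196, and *Gsta4* at 470, 324 and 734 against 899, 183 and 134. *Gclc* and *Gclm* encode the 2 subunits of the enzyme that starts glutathione synthesis. *Gclc* was at 368, 309 and 486 against 416, 122 and 144, and *Gclm* at 819, 920 and 911 against 949, 436 and 510. For these 5 genes KO1 lay within or above the WT libraries, while KO2 and KO3 lay below all of them. With all 6 libraries edgeR called none of them in either set of cells. Over all *Krt19*-selected cells without KO1 it called *Gsta1*, *Gsta3*, *Gsta4* and *Gclc*, at log2 fold changes of -2.60, -1.64, -2.20 and -1.72, and not *Gclm*. Those calls rest on leaving out the KO library that stood apart.

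Other genes of the response to oxidants, likewise picked on their values, were mixed. *Hmox1* was at 385, 590 and 347 against 248, 61.2 and 146, *Txnrd1*, thioredoxin reductase, at 674, 516 and 602 against 473, 283 and 466, and *Sqstm1*, an autophagy receptor, at 490, 660 and 493 against 337, 382 and 441. These 3 had all KO libraries below all WT libraries, as did 5.53% of all genes tested. *Mt1*, a metallothionein, overlapped, at 1271, 1968 and 1579 against 1801, 2699 and 835.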
